A study of Homo sapiens with 6 samples.

Results

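The nuclear genes of respiratory complexes II to V were taken from the deposited count table by symbol. Protein-coding rows were kept whose symbol names a succinate dehydrogenase subunit or assembly factor (SDHA to SDHD, SDHAF), a cytochrome bc1 gene (UQCR, UQCC, CYC1), a cytochrome c oxidase gene (COX followed by a digit, SURF1, SCO1, SCO2), cytochrome c (CYCS) or an ATP synthase gene (ATP5, ATPAF). This gave 70 of the 30403 genes in the table: 8 of complex II, 13 of complex III, cytochrome c, 27 of complex IV and 21 of complex V. The rule used names only, with no measured value. By function, 38 of the 70 genes were classed as subunits, 23 as assembly factors and 6 as paralogs or tissue isoforms.

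The libraries came from HK-2 cells, an immortalised line of human proximal tubule epithelium. Cells were transfected with Lipofectamine 2000 and harvested 48 h later, either with a plasmid for an shRNA against PARP1 (shPARP1, 3 libraries) or with a control shRNA plasmid (shCtrl, 3 libraries). Both groups carried a plasmid and the transfection reagent, and the labels give neither the shRNA sequence nor whether replicates were separate cultures, so p-values measure the spread between libraries, which may be technical. PARP1, the nuclear poly(ADP-ribose) polymerase, stood at 262, 263 and 259 CPM (read counts per library total, scaled for composition with TMM) in shCtrl and at 26.9, 26.2 and 28.8 CPM in shPARP1.

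Mitochondrial respiration passes electrons from NADH and succinate to oxygen and stores the energy as a proton gradient. Complex II oxidises succinate and is also an enzyme of the citric acid cycle, complex III passes electrons from ubiquinol to cytochrome c, complex IV reduces oxygen, and complex V makes ATP from the gradient. Complex II is encoded by the nucleus alone, whereas complexes III, IV and V also hold subunits encoded in mitochondrial DNA, so that their assembly draws on both genomes. The renal proximal tubule reabsorbs solutes by active transport and depends on this pathway for ATP.

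Library totals were 24429683 to 26269194 counts in shCtrl and 29387853 to 32809303 counts in shPARP1. All 3 shPARP1 libraries were deeper, so that depth and knockdown cannot be told apart by library. Of 17 proximal tubule markers, 16 were in the table and 8 exceeded 1 CPM, among them PAX8. The endocytic receptor LRP2 and the anion transporter SLC22A6 were at 0 in shCtrl. The summed proximal tubule markers spanned 1350 to 1360 CPM in shCtrl and 924 to 947 CPM in shPARP1. CDH6 alone went from a mean of 446 CPM to 215 CPM. Of these markers 7 were called lower and 0 higher, where 28.5% of all tested genes were called lower. Summed markers of fibroblasts were 87.0 to 92.4 CPM in shCtrl and 70.6 to 75.7 CPM in shPARP1. Those of leukocytes were 14.1 to 16.2 and 11 to 11.6 CPM, with CD14 called lower and CD68 called higher. Those of endothelium were below 1 CPM in both groups. Epithelial markers went the other way, with a sum of 932 to 951 CPM in shCtrl and 1100 to 1130 CPM in shPARP1, 3 of 5 called higher (KRT18 by 0.59) and CDH1 called lower (-0.86). Whether these marker levels bear on the respiratory genes was not tested.

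Most of these genes were higher after PARP1 knockdown, by small amounts. Of the 70, 67 passed the filter on low counts, and 53 of them (79.1%) were called higher by edgeR's quasi-likelihood test at an adjusted p under 0.05, against 27.3% of all 16040 genes tested. Another 5 were called lower (28.5% of all genes tested were), namely SDHA, ATP5A1, COX10, COX19 and UQCRHL. The other 9 were not called, where 55.7% of all tested genes were called in either direction. The 3 genes left untested were COX4I2, COX8C and ATP5L2, all near 0. Because the filter keeps a gene by its level in either group, these counts describe the genes that passed it.

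The median log2 fold change of the 67 tested genes was 0.38 (interquartile range 0.21 to 0.60), where the median of all tested genes was -0.01 (-0.35 to 0.32). A correction for exon length and GC content left 50 genes higher and 7 lower, with a median of 0.34. With the same correction, 4914 of all 16040 tested genes were called higher and 4158 lower, with a median of 0.02. All shPARP1 libraries lay above all shCtrl libraries for 53 genes and below them for 5, against 29.7% and 30.4% of all tested genes. Only COX17 and UQCC3 among the 67 rose at least 2-fold, a size reached by 2.41% of all tested genes. Summed over the 70 genes, the level was 6400, 6440 and 6440 CPM in shCtrl and 8360, 8150 and 8180 CPM in shPARP1. Their share of all counts was 0.635% ± 0.0071 in the controls and 0.831% ± 0.00768 after knockdown (SD, n = 3 each). In these bulk libraries, more transcript per cell and more cells with the transcript cannot be told apart.

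**Figure D1:**
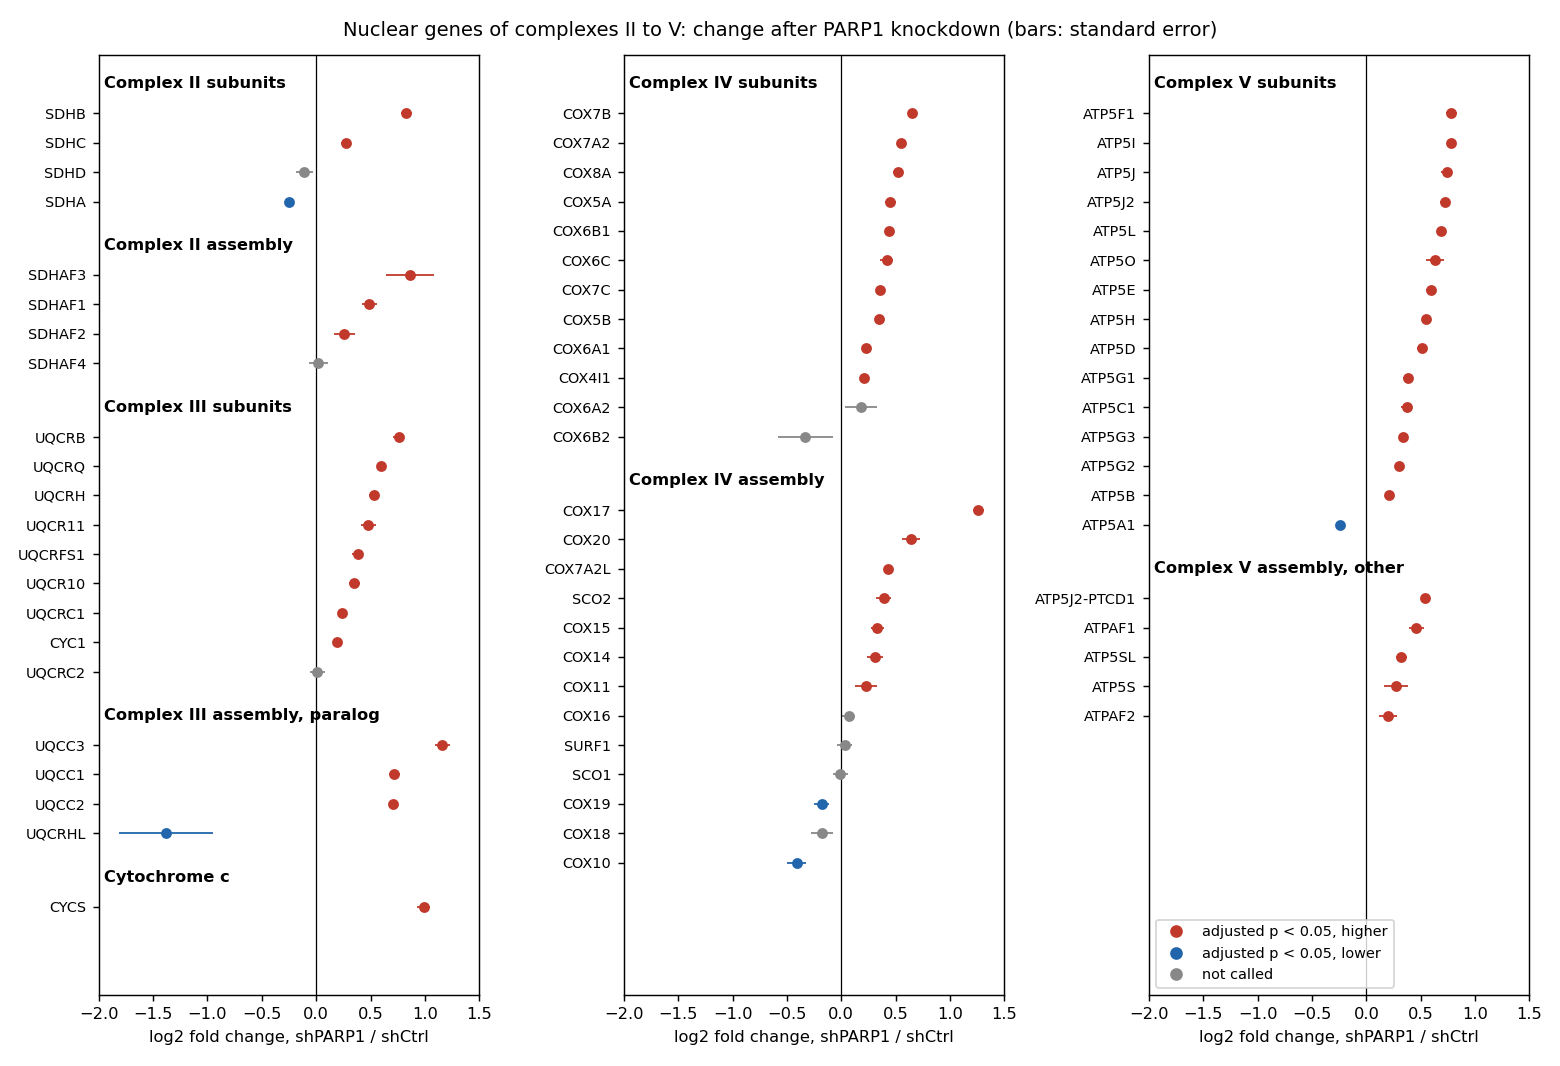
Log2 fold change (x axis, shPARP1 over shCtrl) of the 67 tested genes by complex and role, with standard errors as bars; red genes were called higher, blue lower and grey not called. Most points lie right of 0, with COX17 (1.26) and UQCC3 (1.16) farthest right and UQCRHL (-1.38) farthest left; the tissue isoforms COX6A2 and COX6B2 are drawn with the complex IV subunits.

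Since many of these genes changed together, their promoters were compared as sequence. RefSeq windows (GRCh38.p14), from 250 bases before the transcription start to 50 bases after it, were found for 54 of the 70 genes, and the first start listed for a gene was used. The 150 bases before this RefSeq start follow, read along the gene's strand. They are given for 3 genes that rose (COX17, CYCS and SDHB) and 3 that fell (COX10, SDHA and ATP5A1). The GENCODE 29 span of each of these genes begins within the printed bases. By that annotation, part of each printed stretch lies inside the gene, and for SDHB most of it. Capitals mark matches on either strand to the searched motifs, and overlapping matches run together.
COX17, chr3:119677407-119677556, minus strand: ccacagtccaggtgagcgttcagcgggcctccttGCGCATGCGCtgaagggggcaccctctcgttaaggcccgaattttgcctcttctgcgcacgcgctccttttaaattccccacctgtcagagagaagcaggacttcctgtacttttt
CYCS, chr7:25125261-25125410, minus strand: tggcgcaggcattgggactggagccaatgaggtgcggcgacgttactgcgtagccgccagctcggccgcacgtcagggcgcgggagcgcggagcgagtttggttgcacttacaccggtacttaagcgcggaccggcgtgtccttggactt
SDHB, chr1:17054033-17054182, minus strand: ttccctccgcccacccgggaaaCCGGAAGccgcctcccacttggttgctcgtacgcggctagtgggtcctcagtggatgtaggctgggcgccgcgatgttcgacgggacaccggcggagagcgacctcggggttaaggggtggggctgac
COX10, chr17:14069354-14069503, plus strand: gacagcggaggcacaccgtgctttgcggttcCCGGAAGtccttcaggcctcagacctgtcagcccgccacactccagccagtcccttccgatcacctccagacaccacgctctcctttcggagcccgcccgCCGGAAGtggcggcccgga
SDHA, chr5:218170-218319, plus strand: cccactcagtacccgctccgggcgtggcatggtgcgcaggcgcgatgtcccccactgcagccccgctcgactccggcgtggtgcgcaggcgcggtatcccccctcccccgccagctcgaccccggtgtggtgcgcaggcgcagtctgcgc
ATP5A1, chr18:46104228-46104377, minus strand: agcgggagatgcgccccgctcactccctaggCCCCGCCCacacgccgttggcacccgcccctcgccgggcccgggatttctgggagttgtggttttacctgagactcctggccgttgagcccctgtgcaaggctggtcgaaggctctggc

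The core of the NRF1 site (GCGCATGC) lay within 24.1% of the 54 promoter windows (13 of 54), and within 3.27% of the 27305 windows of all genes and 4.26% of the 15843 windows of protein-coding genes. COX17 holds this palindrome-like motif 116 bases before the start, overlapping a second match on the other strand at 114 bases. The ETS core (CCGGAAG), which GABPA recognises, was found in 38.9% of the windows (21 of 54), against 10.7% of all genes and 14.2% of protein-coding genes. It lies 128 bases before the RefSeq start of SDHB, which rose, a place inside the GENCODE 29 span of SDHB. In COX10, which fell, it lies 119 and 19 bases before the RefSeq start. The YY1 core (AAGATGGC) stood in 14.8% of the windows and in 3.91% of those of protein-coding genes. For the half-site of the estrogen-related receptors (AAGGTCA) the shares were 9.26% and 3.13%, and for the cyclic AMP element (TGACGTCA) 5.56% and 2.59%. The ATP5A1 window holds the SP1 box on the other strand, 119 bases before the start, and the SDHA window holds none of the motifs. In CYCS the NRF1 core lies in the window but outside the printed bases, as do NRF1, YY1, ERR and cyclic AMP element matches in SDHB, an ETS core in COX17, and YY1 and SP1 matches in COX10. The SP1 box (GGGCGGGG) was in 22.2% of the windows and in 31.6% of those of protein-coding genes. Of the 40 genes with a window that were called higher, 11 held the NRF1 core and 17 the ETS core, beside 13 and 21 of all 54. Genes not called higher held them too, such as SDHD and COX18 (NRF1 core) and COX10, SDHD, SCO1 and SURF1 (ETS core). Whether the motifs bear on the changes was not tested, and the background windows were not limited to genes tested here. These matches describe letters in a window, and factor binding was not measured.

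The subunits of complex II, the only respiratory complex without a mitochondrially encoded part, moved in different directions. SDHB, the iron-sulfur subunit (chromosome 1, 17018722 to 17054170, GRCh38), was at 51.3, 53.1 and 53.3 CPM in shCtrl and at 91.4, 95.2 and 94.2 CPM in shPARP1, with no overlap between groups. Its log2 fold change was 0.83 (SE 0.05, edgeR adjusted p = 5.49e-23). SDHA, the flavoprotein subunit that binds succinate (chromosome 5, 218241 to 256700), was at 251, 251 and 249 CPM in shCtrl and at 209, 213 and 211 CPM in shPARP1. The SDHA groups did not overlap either, and the gene fell by 0.25 on the log2 scale (SE 0.03, edgeR adjusted p = 1.58e-08). With the length and GC correction SDHA was at -0.09 and SDHB at 0.75. The 2 catalytic subunits sit in the complex as partners, and the ratio of SDHB to SDHA CPM went from 0.204, 0.212 and 0.214 in shCtrl to 0.438, 0.446 and 0.446 in shPARP1.

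The membrane anchor SDHC rose from 77.7 to 93.7 CPM on average (log2 fold change 0.27), and the other anchor, SDHD, was not called (-0.11, edgeR adjusted p = 0.245). SDHD overlaps the import chaperone gene TIMM8B on the opposite strand; TIMM8B rose (1.23), and with the length and GC correction SDHD was called lower (-0.25). The summed subunit level of complex II was 402 ± 0.645 CPM with the control shRNA and 418 ± 1.28 CPM with the PARP1 shRNA (SD, n = 3), a ratio of 1.04. Of the assembly factors, SDHAF1 (0.49), SDHAF2 (0.26) and SDHAF3 (0.86) were called higher. The SDHAF2 call was lost without shCtrl replicate 1 or 2 or shPARP1 replicate 1 or 3, at adjusted p-values of 0.0509 to 0.131 (edgeR). SDHAF1 and SDHAF3 help insert the iron-sulfur clusters of SDHB, and SDHAF2 attaches the flavin to SDHA. SDHAF3 was low, at 1.09, 1.77 and 2.04 CPM in shCtrl and 2.55, 2.92 and 3.49 CPM in shPARP1. SDHAF4, which binds flavinated SDHA, was not called (0.02, edgeR adjusted p = 0.888). With the length and GC correction SDHAF4 was called lower (-0.22, edgeR adjusted p = 0.0280) and SDHAF2 was not called (0.18, edgeR adjusted p = 0.102).

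In complex III, 8 of 9 subunits and all 3 assembly factors rose. The largest change was in UQCC3 (chromosome 11, 62670273 to 62673687), one of the factors that stabilise newly made cytochrome b. It was at 15.2, 15.1 and 15.6 CPM in shCtrl and 36.5, 34.0 and 31.9 CPM in shPARP1, and its log2 fold change was 1.16 (SE 0.07, edgeR adjusted p = 2.98e-20). UQCC1 and UQCC2, which bind cytochrome b while it is translated, rose by 0.72 and 0.71. UQCC1 was at 44.0 to 48.2 CPM in shCtrl and 74.0 to 76.4 CPM in shPARP1, and UQCC2 at 70.4 to 77.7 and 118 to 125 CPM, so that none of the 3 factors overlapped between groups. Cytochrome b itself, encoded by MT-CYB, was not called (-0.08, edgeR adjusted p = 0.307). It was called lower without the filter on low counts (edgeR adjusted p = 0.0111), without shCtrl replicate 2 (-0.12, edgeR adjusted p = 0.00189) and with the length and GC correction (-0.30, edgeR adjusted p = 0.0251).

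Among the complex III subunits, the fold changes ran from 0.01 to 0.76. UQCRB, which lies next to the ubiquinone site, was at 47.0, 45.9 and 43.2 CPM in shCtrl and 73.6, 73.8 and 83.2 CPM in shPARP1 (log2 fold change 0.76, SE 0.05). UQCRQ (0.60), UQCRH (0.53), UQCR11 (0.48) and UQCR10 (0.35, or 0.13 with the length and GC correction) are further small accessory subunits that rose. The electron-carrying subunits, the Rieske iron-sulfur protein UQCRFS1 (0.38) and cytochrome c1 (CYC1, 0.19), also rose. Of the core proteins, UQCRC1 rose by 0.24 from a mean of 262 CPM, and UQCRC2 stood at 29.6 to 31.1 CPM in shCtrl and 28.7 to 32.3 CPM in shPARP1 and was not called (0.01, edgeR adjusted p = 0.908). The median over the 9 subunits was 0.38.

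CYCS, the somatic cytochrome c that carries electrons from complex III to complex IV (chromosome 7, 25120091 to 25125361), rose almost 2-fold. It was at 26.4, 25.5 and 28.1 CPM in shCtrl and 52.9, 52.5 and 53.9 CPM in shPARP1. Every shPARP1 library lay above every shCtrl library, and the log2 fold change was 0.99 (SE 0.06, edgeR adjusted p = 1.48e-21). HCCS, the enzyme that attaches heme to cytochrome c, rose by 0.22.

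All 10 common nuclear subunits of complex IV were called higher, and 9 of 10 after the length and GC correction, where COX6A1 was at -0.06 (edgeR adjusted p = 0.0932). The changes ran from 0.21 for COX4I1 to 0.65 for COX7B, with a median of 0.43, which was 0.28 after the correction. Corrected values were over 1.5 times smaller for COX5A (0.27), COX5B (0.17), COX6B1 (0.23), COX7A2 (0.34), COX7C (0.12) and COX8A (0.33), while COX4I1 was at 0.28. COX4I1, a large subunit that contacts the catalytic core, was at 670, 680 and 688 CPM in shCtrl and 800, 774 and 774 CPM in shPARP1. COX5A (0.45) and COX5B (0.35), which flank the core on the matrix side, were at 65.0 to 68.2 and 200 to 203 CPM in shCtrl, and at 87.4 to 95.6 and 248 to 273 CPM in shPARP1. The short membrane subunits COX7A2 (0.55), COX7B (0.65), COX7C (0.36) and COX8A (0.52) spanned most of this range. Per exon length, on the FPKM scale of the deposited table, COX6A1 was the highest of the 10 (752 in shCtrl, 907 in shPARP1) and COX6C the lowest (13.8 and 19.0).

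The assembly factors of complex IV were divided, with 7 of 13 called higher, 2 lower and 4 not called. COX17 (chromosome 3, 119654513 to 119677454), the chaperone that hands copper to SCO1, SCO2 and COX11, had the largest rise of all 67 tested genes. It was at 27.7, 29.4 and 31.1 CPM in shCtrl and 71.2, 69.5 and 71.0 CPM in shPARP1, and its log2 fold change was 1.26 (SE 0.05, edgeR adjusted p = 8.90e-28). The copper chaperones that act after it had smaller values. SCO2 rose by 0.39, SCO1 was not called (-0.01, edgeR adjusted p = 0.949), and COX11 was called higher at 0.23 (edgeR adjusted p = 0.0444). COX19, which works with COX11, was called lower (-0.18, edgeR adjusted p = 0.0202), but it was not called without shCtrl replicate 2 (edgeR adjusted p = 0.102), shPARP1 replicate 1 (0.0762) or shPARP1 replicate 3 (0.0822). The COX11 call was lost in 5 of the 6 fits that left out a library, all but that without shCtrl replicate 3, with edgeR adjusted p-values from 0.0513 to 0.202.

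Both enzymes of heme A synthesis changed, in opposite directions. COX10, which adds the farnesyl group (chromosome 17, 14069496 to 14208677), was at 16.2, 13.6 and 17.2 CPM in shCtrl and 12, 10.9 and 12.4 CPM in shPARP1, and fell by 0.41 on the log2 scale (SE 0.09, edgeR adjusted p = 0.000136). COX15, the next enzyme, was at 26.6, 29.5 and 29.3 CPM in shCtrl and 35.6, 36.4 and 35.3 CPM in shPARP1, and rose by 0.33 (SE 0.06). The groups did not overlap for either gene. SURF1, mutated in Leigh syndrome and needed for early assembly, was at 24.8 to 28.9 CPM in shCtrl and 27.7 to 28.6 CPM in shPARP1 and was not called (0.03). SURF2, which overlaps SURF1 head to head on the opposite strand, rose by 0.99, so that the ratio of SURF2 to SURF1 went from 0.549 ± 0.0554 to 1.06 ± 0.0618 (SD, n = 3). COX7A2L, which links complexes III and IV into supercomplexes, rose by 0.43.

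The remaining complex IV factors act on the mitochondrially encoded core. COX18, which inserts MT-CO2 into the inner membrane, was at 10.4, 11.5 and 10.8 CPM in shCtrl and 9.23, 9.72 and 9.91 CPM in shPARP1. It lay lower in every shPARP1 library but was not called (-0.18, edgeR adjusted p = 0.117). COX20, the chaperone of newly inserted MT-CO2, was at 15.3 to 19.9 CPM and 26.1 to 29.8 CPM and was called higher (0.64). COX14, a partner of newly made MT-CO1, was at 22.3 to 24.2 CPM and 28.4 to 29.9 CPM (0.31). COX16, which also takes part in the MT-CO2 step, was at 37.8 to 38.7 CPM and 39.3 to 42.2 CPM and was not called (0.07, edgeR adjusted p = 0.289). With the length and GC correction COX14 was no longer called (0.11, edgeR adjusted p = 0.170) and COX16 was called lower (-0.17, edgeR adjusted p = 0.00501).

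In complex V, 19 of 20 tested genes were called higher and ATP5A1 was called lower. The 19 were 14 of 15 subunits, 3 of 3 genes classed as assembly factors, the readthrough ATP5J2-PTCD1 and ATP5SL, which was taken by its symbol. The genes classed as assembly factors were ATPAF1, ATPAF2 and ATP5S, which is factor B. By position in the enzyme, the 4 peripheral stalk genes (ATP5F1, ATP5H, ATP5J, ATP5O) had a median of 0.68, and the 3 small membrane subunits ATP5I, ATP5J2 and ATP5L a median of 0.72. The c-ring genes had a median of 0.34. ATP5F1, which encodes stalk subunit b, was at 49.2, 53.5 and 55.4 CPM in shCtrl and 84.7, 92.0 and 94.9 CPM in shPARP1 (log2 fold change 0.78, SE 0.05). ATP5I, subunit e, was at 75.9, 69.6 and 69.8 CPM and 121, 122 and 126 CPM (0.78, SE 0.04). ATP5J (0.74), ATP5J2 (0.72) and ATP5L (0.69) followed, and none of these 5 genes overlapped between groups.

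In the catalytic F1 head, 4 of 5 genes rose. The alpha and beta subunits alternate in a ring of equal copies, yet their transcripts moved apart. ATP5A1, subunit alpha (chromosome 18, 46080248 to 46104334), was at 224, 234 and 218 CPM in shCtrl and 190, 193 and 192 CPM in shPARP1, and fell by 0.24 on the log2 scale (SE 0.04, edgeR adjusted p = 1.26e-07). ATP5B, subunit beta, was at 474, 492 and 500 CPM in shCtrl and 565, 565 and 570 CPM in shPARP1, and rose by 0.21 (SE 0.03, edgeR adjusted p = 4.70e-08). With the length and GC correction they were at -0.08 and 0.12. The ratio of ATP5B to ATP5A1 CPM was 2.11, 2.10 and 2.29 in shCtrl and 2.97, 2.93 and 2.97 in shPARP1. The central stalk subunits gamma (ATP5C1, 0.37, or 0.22 corrected), delta (ATP5D, 0.51) and epsilon (ATP5E, 0.59) rose. Of the F1 assembly factors, ATPAF1, which binds subunit beta, rose by 0.46, and ATPAF2, which binds subunit alpha, was called higher at 0.20 (edgeR adjusted p = 0.0329), or 0.31 corrected. The ATPAF2 call was lost without shCtrl replicate 1 or 3 or shPARP1 replicate 1 or 2, at edgeR adjusted p-values of 0.0501 to 0.202.

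Other genes with an ATP synthase symbol were higher as well. The stalk genes ATP5H (subunit d) and ATP5O (the oligomycin sensitivity protein) were at 72.9 to 79.6 and 15.1 to 16.7 CPM in shCtrl, and at 111 to 115 and 22.3 to 26.5 CPM in shPARP1 (0.55 and 0.63). The readthrough ATP5J2-PTCD1, which shares exons with ATP5J2 and PTCD1, was called higher (0.54) and is no independent measurement of either. ATP5SL (0.32), since renamed DMAC2 and assigned to complex I assembly, went from 56.7 to 61.5 CPM in shCtrl up to 74.5 to 75 CPM in shPARP1. ATP5S, its paralog, was called higher at 0.27 (edgeR adjusted p = 0.0262), a call lost without shCtrl replicate 1 or 2 or shPARP1 replicate 1 or 3, at edgeR adjusted p-values of 0.0561 to 0.135.

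**Figure D2:**
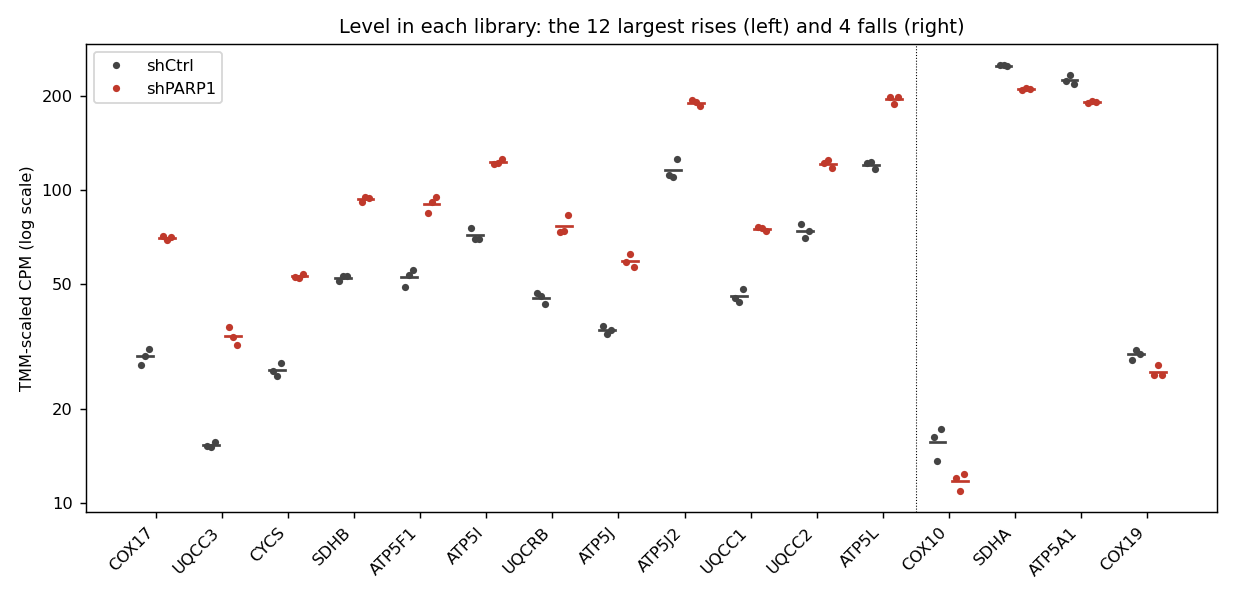
TMM-scaled CPM (y axis, log scale) in each of the 3 shCtrl (grey) and 3 shPARP1 (red) libraries, with group means as bars, for the 12 largest rises and for the 4 falls among called genes whose mean reached 5 CPM. Genes were picked among those with no overlap between groups, and they range from COX17 (27.7 to 31.1 against 69.5 to 71.2) to COX19 (28.7 to 30.9 against 25.6 to 27.6).

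The c ring can be built from 3 genes that encode the same mature protein with different import signals, and their proportions stayed near those of the control. On the FPKM scale, ATP5G1 made up 39.4% ± 0.849 of their sum in shCtrl and 40.6% ± 0.276 in shPARP1 (SD, n = 3), ATP5G2 49.4% ± 0.829 and 48.2% ± 0.264, and ATP5G3 11.2% ± 0.0288 and 11.2% ± 0.0531. By counts, mean shares in shCtrl and shPARP1 were 13.4% and 13.9% for ATP5G1, 55.1% and 54.2% for ATP5G2, and 31.5% and 31.9% for ATP5G3. The order of ATP5G1 and ATP5G3 thus depends on the scale. All 3 rose, by 0.38, 0.30 and 0.34. Paralogs and tissue isoforms stayed low, at least beside the common form. COX4I2, the lung form of subunit 4 that responds to hypoxia, was listed at 0 in 5 of 6 libraries. The muscle form COX6A2 had a mean FPKM of 8.79 in shCtrl and 10.2 in shPARP1. On that scale it made up 1.15% ± 0.212 of the COX6A sum in shCtrl and 1.11% ± 0.0637 in shPARP1. COX6B2, the testis form, made up 0.285% ± 0.0377 and 0.166% ± 0.0227 of the COX6B sum, and neither isoform was itself called. UQCRHL, a near copy of UQCRH, had 24, 13 and 29 counts in shCtrl and 6, 16 and 9 in shPARP1. These counts overlap between groups, and reads of UQCRHL and UQCRH may not be separable. The lower call (-1.38, edgeR adjusted p = 0.00464) was lost without shPARP1 replicate 1 (-1.07, edgeR adjusted p = 0.0517).

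Complexes III, IV and V also contain subunits encoded in mitochondrial DNA, and these did not rise with their nuclear partners. Of the 13 mitochondrially encoded genes, none was called higher and 8 were called lower, with a median of -0.27. The lower count was 5 without shCtrl replicate 3 or without shPARP1 replicate 1, and 13 with the length and GC correction. MT-CO1, the catalytic subunit of complex IV, was at 23000, 22100 and 23100 CPM in shCtrl and 17400, 18500 and 18100 CPM in shPARP1, and fell by 0.34 on the log2 scale (SE 0.03). MT-CO2, which takes electrons from cytochrome c, was at 18200 to 19600 CPM in shCtrl and 14500 to 15400 CPM in shPARP1, and fell by 0.36. With the length and GC correction the median of the 13 genes was -0.49, with MT-CO1 at -0.53 and MT-CO2 at -0.60. The correction was fitted over all tested genes, whose median exon length was 4491 bases, and these 13 genes have 207 to 1812 bases. Whether it holds for them was not tested. MT-CO3 (-0.07, edgeR adjusted p = 0.0436) and MT-ATP6 (-0.10, edgeR adjusted p = 0.0449) lay just inside the threshold with overlapping groups. After the correction they were at -0.30 (edgeR adjusted p = 5.61e-16) and -0.37 (edgeR adjusted p = 2.80e-06). The MT-CO3 call was lost without shCtrl replicate 1 or 3 or shPARP1 replicate 1 or 2, at edgeR adjusted p-values of 0.103 to 0.331. The MT-ATP6 call was lost without shCtrl replicate 1 or 3 or shPARP1 replicate 1 or 3, at 0.0834 to 0.234. MT-ATP8 was not called (-0.14), except with the correction (-0.37, edgeR adjusted p = 0.0141).

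The sums by genome show this divergence most clearly for complex IV. Nuclear complex IV subunits summed to 2270, 2280 and 2300 CPM in shCtrl and 2970, 2830 and 2830 CPM in shPARP1, a ratio of means of 1.26. The mitochondrially encoded complex IV subunits summed to 49700, 47000 and 50100 CPM in shCtrl and 38300, 40000 and 40500 CPM in shPARP1, a ratio of 0.809. The nuclear to mitochondrial ratio for complex IV therefore went from 0.0467 ± 0.0016 to 0.0727 ± 0.00408 (SD, n = 3), 1.56 times the control value. For complexes III and V the nuclear sums rose (ratios of means 1.30 and 1.30), while the mitochondrial sums overlapped between groups (0.945 and 0.928). Their nuclear to mitochondrial ratio was 1.37 and 1.4 times the control value, also with no overlap between groups. These are ratios of sequenced transcripts after selection of polyadenylated RNA, whose recovery can differ between the genomes, and nuclear copies of mitochondrial DNA can share reads. Mitochondrial genes took 12% to 13.1% of all counts in shCtrl and 9.94% to 10.8% in shPARP1, a difference whose part in the nuclear levels was not tested. Without TMM scaling the median change of the 67 genes was 0.41, and that of all tested genes was 0.023.

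**Figure D3:**
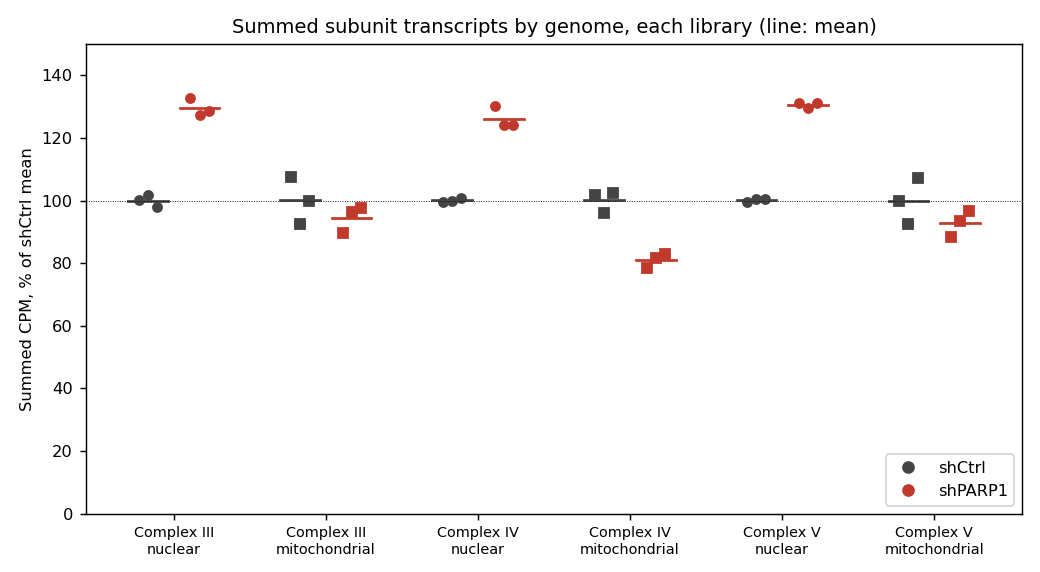
Summed CPM of nuclear (circles) and mitochondrially encoded (squares) subunits of complexes III, IV and V in each library, as a percentage of the shCtrl mean (y axis); bars are group means. The nuclear sums of shPARP1 lie above those of shCtrl in each complex (ratios of means 1.30, 1.26 and 1.30), and the mitochondrial sums lie below the control mean (0.945, 0.809 and 0.928), with no overlap between groups for complex IV.

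Further genes of the pathway were described from a list of 48 that the naming rule did not take. Of 28 subunits, assembly factors and associated proteins among them, 22 were called higher and 1 lower, with a median of 0.43. The lower gene was TMEM242, an ATP synthase assembly factor (-0.30), whose call was lost on log2(FPKM + 0.1) (-0.25, limma adjusted p = 0.0503) and log2(FPKM + 1) (-0.19, limma adjusted p = 0.0507). USMG5, a small ATP synthase subunit, was at 78.3, 77.3 and 82.7 CPM in shCtrl and 144, 146 and 144 CPM in shPARP1 (log2 fold change 0.87). CMC2, a twin-cysteine protein of complex IV biogenesis, was at 30.2 to 31.4 and 65.1 to 67.1 CPM (1.11), and COA3, which holds newly made MT-CO1, at 45.7 to 47.7 and 76.3 to 81.7 CPM (0.75). Of 7 mitochondrial RNA and translation factors, 4 were called higher and none lower (median 0.24). SLIRP, which stabilises mitochondrial messenger RNA with LRPPRC, was at 36.9 to 41.8 CPM in shCtrl and 72.3 to 77.2 CPM in shPARP1 (0.93), while LRPPRC rose by 0.24.

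Most of the listed regulators of respiratory gene expression were not called. Among the 13, 2 were called higher (ESRRA and GABPB1), 2 lower (SP1 and TFB2M) and 9 were not called, with a median of 0.03. Of all tested genes, 27.3% were called higher and 28.5% lower. ESRRA, the estrogen-related receptor alpha, was at 28.9 to 35.8 CPM in shCtrl and 43.9 to 46.7 CPM in shPARP1, and rose by 0.52 on the log2 scale. GABPB1, which pairs with GABPA, rose by 0.60. NRF1 was at 18.7 to 20 and 19.6 to 21.2 CPM (0.10, edgeR adjusted p = 0.271), and was not called. GABPA (0.04, with 1.65 to 2.31 CPM over the 6 libraries) and the coactivator PPARGC1A (-0.07, with 0.794 to 1.88 CPM) were not called either. SP1 was at 46.6, 47.5 and 47.7 CPM in shCtrl and 31.7, 30.5 and 30.0 CPM in shPARP1, and fell by 0.62 on the log2 scale. For the mitochondrial genome, TFAM was not called (-0.09), and TFB2M, a transcription factor of mitochondrial DNA, fell by 0.39. The TFB2M call was lost without shPARP1 replicate 1 (-0.30, edgeR adjusted p = 0.0525).

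Nuclear genes of related mitochondrial machines were also mostly higher. Of 46 tested genes with symbols starting with NDUF, here called complex I genes, 38 were called higher, with a median of 0.46. This naming rule also takes NDUFA4 (0.36), counted above among the further genes of complexes II to V, and the similarly named NDUFA4L2. The list is therefore not complex I alone. The 3 called lower were NDUFA4L2, NDUFC2 and NDUFS1, named after their values were seen, and none was called lower without shCtrl replicate 3 or without shPARP1 replicate 2. Of 78 mitochondrial ribosomal protein genes, which translate the mitochondrially encoded subunits, 76 were called higher and none lower, with a median of 0.57. No test of a difference between these lists was made.

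Short genes are common among the respiratory genes. The merged exon length of the 67 genes had a median of 2859 bases, against 4491 bases for all tested genes, and across all tested genes shorter genes had higher fold changes (Spearman correlation -0.20, across genes, which are not independent). Across the 67 genes the correlation was -0.16. With a length and GC correction, COX14 (0.11), SDHAF2 (0.18), COX19 (-0.07) and COX6A1 (-0.06) were no longer called. SDHD, COX16 and SDHAF4, not called before, were called lower (-0.25, -0.17 and -0.22). SDHA (-0.09, edgeR adjusted p = 0.00478) and ATP5A1 (-0.08, edgeR adjusted p = 0.0203) kept their lower calls at less than the uncorrected size, and COX17 (1.09), UQCC3 (1.08), CYCS (0.97) and SDHB (0.75) kept their higher calls.

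**Figure D4:**
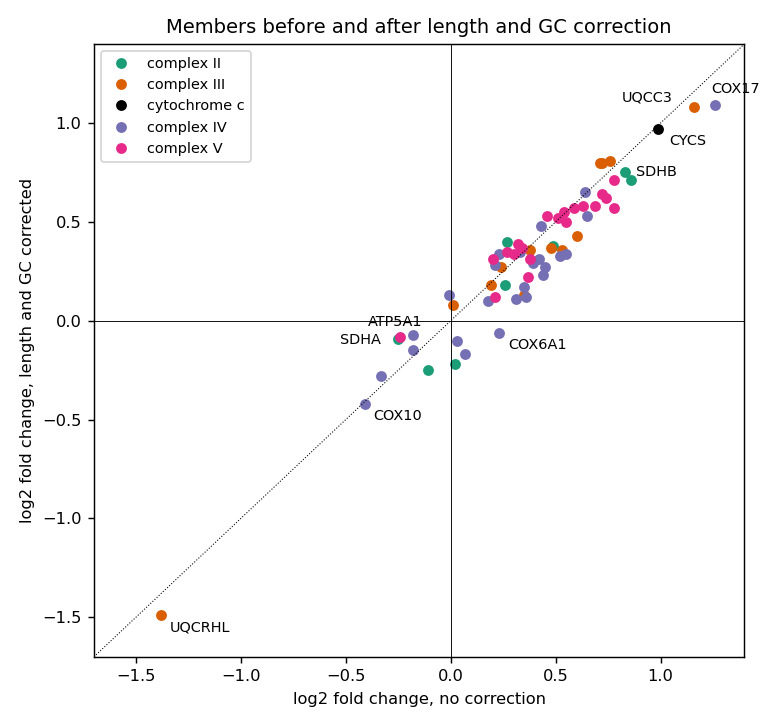
Log2 fold change of the 67 tested genes without correction (x axis) and with a correction for exon length and GC content (y axis), coloured by complex; the dotted line marks equal values. Most points lie near or just below the line, and COX6A1 crosses from 0.23 to -0.06.

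The counting of overlapping genes is uncertain, since the strand setting is not given in the sources used here. For 13 of the 70 genes, exons overlap another gene that holds at least 50% of the gene's own counts. An example is COX20, a factor for MT-CO2, of whose exon bases 72.0% overlap HNRNPU on the opposite strand. COX20 was called higher (0.64), and HNRNPU was not called (-0.01). ATP5F1 (0.78) overlaps WDR77, which rose by 0.77, and UQCC2 (0.71) overlaps ITPR3, which fell by 0.36. Without the 13 genes, 42 of 54 tested genes were called higher and 5 lower, with a median of 0.36. Pseudogenes of these genes are common in the human genome, and 23 pseudogene rows picked by symbol summed to 0.176% to 0.268% of the counts of the 70 genes in a library. SDHAP1 held most of them, for example 242 of 363 counts in shCtrl replicate 1. The pick also took SCOCP1, named after another gene, and missed pseudogenes with clone names.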

How the data were processed

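RNA with poly(A) tails from 6 HK-2 libraries was sequenced from both ends after strand-marking library preparation, per the labels' protocols. The deposited counts are raw reads per gene, and the deposited FPKM values cover the same genes and libraries. Per the submitters' processing notes, bcl2fastq, TopHat2 and edgeR were used with GRCh38. How reads were counted, and whether by strand, is not given in the sources used here. Counts of 30403 genes were filtered with filterByExpr (16040 kept), scaled with TMM and tested with the robust quasi-likelihood F test of edgeR 4.0.16 (R 4.3.3), shPARP1 against shCtrl, with Benjamini-Hochberg adjustment over all genes tested. A gene was called at an adjusted p under 0.05. CPM values are TMM-scaled and errors are SD over 3 libraries. Within a group the libraries differed by more than sampling noise.

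The respiratory genes, the other lists and the tests were chosen with earlier results of these data known. Genes were named by a rule: PARP1, the 12 strongest changes in each direction among called genes with no overlap between groups and a mean of at least 5 CPM (only 4 falls qualified), a set of core subunits and factors, tissue isoforms and paralogs, the mitochondrially encoded genes of complexes III to V, and of the other respiratory genes 5 regulators and up to 4 called in each direction by smallest p-value. Genes outside the rule are given by count or as members of the described set.

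Coordinates, exon lengths and GC content came from GENCODE 29 (97.4% of genes matched by identifier). The length and GC correction fitted natural splines per library and entered the fit as an offset. Other alternatives were RLE or no scaling, no or a stricter filter (5 CPM in 3 libraries), DESeq2 1.42.0, limma 3.58.1 (voom on counts, and trend on log2 FPKM with pseudocounts of 1 or 0.1), a replicate block and leaving out each library. Leaving out members with overlapping genes was chosen after seeing the data. The gene test was tested on simulated data. Motifs were searched on both strands with Python 3.11.15.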

Additional observations from a re-analysis of the deposited data

How the results depend on the processing

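Over 16 other settings of scaling, filter, model or libraries, between 49 and 53 of the genes tested in each were called higher and between 3 and 7 lower, and the counts of other respiratory genes and mitochondrial ribosomal genes called higher stayed at 25 to 30 and 72 to 77. The median change was 0.41 without TMM scaling, 0.41 on log2(FPKM + 1) and 0.42 on log2(FPKM + 0.1). It was 0.34 with the length and GC correction. Without the 13 genes that overlap others, an alternative chosen after seeing the data, it was 0.36 (42 of 54 higher). Each differs from 0.38 by more than the spread between libraries (0.011). That spread does not measure a change of setting or of gene set, so the comparison is no test. The median of all tested genes moved as well, from -0.007 to 0.023 without TMM scaling and to 0.017 and 0.036 on the FPKM scales. These moves are close to those of the respiratory genes. With the length and GC correction the median of all tested genes rose to 0.025, while that of the respiratory genes fell. With the length and GC correction COX16 was at -0.17, COX6A1 at -0.06 and SDHAF4 at -0.22, and 13 mitochondrially encoded genes were called lower. Complex I genes called lower numbered 1 with DESeq2 and 0 with either FPKM setting.

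Leaving out each library gave 49 to 52 genes higher and 3 to 5 lower (3 without shPARP1 replicate 1, where COX19 and UQCRHL lost their calls) and a median of 0.37 to 0.39. Under the same alternatives, 5 to 10 mitochondrially encoded genes and 0 to 3 complex I genes were called lower, 37 to 39 complex I genes, 75 to 77 mitochondrial ribosomal genes and 27 to 30 other respiratory genes were called higher, and PARP1 stayed between -3.30 and -3.23. SDHAF2 and ATP5S each lost the call in 4 of 6 such fits, with adjusted p-values from 0.0509 to 0.131 and from 0.0561 to 0.135 (edgeR). The SDHAF2 losses were without shCtrl replicates 1 and 2 and shPARP1 replicates 1 and 3. The cause of these changes was not tested, beyond the smaller number of libraries.

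The replicate numbers gave no sign of pairing: same-numbered libraries had deviations correlated at 0.0358, -0.00421 and 0.0362, and the labels tie them to nothing shared. With the replicate number as a block, 53 genes were called higher and 5 lower, and the median was 0.38. At 3 libraries per group the SE of a log2 fold change was 0.03 to 0.05 for well-expressed genes, and 0.43 for UQCRHL, which had at most 29 counts in a library.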
